A study of Mus musculus with 188 samples.

Results

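The EGF family and its receptors were followed here through 8 genes: the ligands Areg (amphiregulin), Ereg (epiregulin), Hbegf (heparin-binding EGF-like growth factor), Tgfa (transforming growth factor alpha), Btc (betacellulin) and Egf, and the receptors Egfr and Erbb2. They were the 8 of 25711 gene rows whose Ensembl identifier carries these symbols. All 8 were found in every library and passed the filter on low counts. The set was chosen by membership of the family and by measured differences between treatments in these same libraries, so its levels and differences between treatments, times and culture rounds are given as a description, without p-values. The comparison of the sexes was not used in choosing the genes and was tested.

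Ligands of this family are made as membrane-bound precursors, and metalloproteases, mainly ADAM17 and ADAM10, cut them free to act on the same or a neighbouring cell. Binding pairs EGFR with a further receptor of the ERBB family. ERBB2 binds no known ligand of its own and serves as the preferred partner. The paired receptors signal through RAS and ERK, which switch on immediate early genes and, with a delay, the phosphatases and Sprouty proteins that dampen the pathway. In the brain, EGFR is known for its part in progenitors and in astrocytes that react to injury.

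The measurements are bulk mRNA libraries from coronal brain slices of C57BL/6J mice, 6 to 8 weeks old and of both sexes, kept on membrane inserts and exposed from day 7 of culture. Libraries of batch 1 were exposed for 24 h to medium alone (control), to heme bound to albumin (heme-albumin) at 12.5, 50, 200 or 400 µM, or to heme bound to its scavenger hemopexin (hemeHpx) at 200 µM, with 10 libraries per group. Libraries of batches 2 and 3 were exposed for 24 h or 48 h to medium alone (10 and 9 libraries), to hemoglobin (Hb) at 200 or 400 µM (10 libraries in each of the 4 groups), to Hb complexed with haptoglobin (HbHp) at 200 µM (8 and 8) or 400 µM (4 and 5), or to haptoglobin (Hp) alone at 400 µM (12 and 11). These groups hold 167 of the 188 libraries, and the other 21 carry labels that give no clear group and entered no fit. The titles of the hemeHpx libraries name haptoglobin, whereas their treatment tags and library names give hemopexin, which was followed. All slices, controls included, had been moved on day 4 to serum-free medium with the G-5 supplement, a mixture that is generally sold with EGF and basic FGF, and its composition is not given in the sources used here. By the methods of the study, the albumin, hemoglobin, haptoglobin and hemopexin were of human origin, apart from isotope-labelled material. The labels do not say that the libraries of a group came from separate animals, so the errors below measure the spread between libraries, which may in part be technical.

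Levels are CPM, the reads of a gene brought to a common library size, on library sizes scaled by the trimmed mean of M values, set separately for batch 1 and for batches 2 and 3, so that levels are not compared between the 2 sets. Total counts ran from 11038484 to 44199060 in batch 1 and from 15587938 to 54174784 in batches 2 and 3. Library names of batches 2 and 3 carry a prefix, E1 or E2, whose meaning the labels do not give. It is called culture round here. Round E2 differed from round E1 at 68% of the 16473 genes tested, and all HbHp libraries were of round E2 and batch 3, while 7 of 10 controls at 24 h and 7 of 9 at 48 h were of round E1. Fits over batches 2 and 3 therefore held terms for batch and round, and values within round E2 stand beside the main ones where they differ. The neuronal markers Rbfox3, Snap25, Syt1, Slc17a7 and Gad1 summed to 18.2 to 213 CPM per library, against 1777 to 10722 CPM for 5 astrocyte markers.

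The 4 ligand genes Epgn, Ereg, Areg and Btc are successive protein-coding genes on mouse chromosome 5, and Egfr and Erbb2 both lie on chromosome 11 (GRCm38, GENCODE M21). Areg, Ereg and Btc differed with treatment in both sets of libraries, whereas Epgn was too low to pass the filter. Egf overlaps a gene on its own strand, and Ereg, Tgfa, Egf, Egfr and Erbb2 overlap genes on the other strand. Whether the counting used strand is not given in the sources used here, so reads of overlapping genes may be shared. RefSeq promoter windows were at hand for 6 of the 8 genes, all but Ereg and Hbegf. The bases before the starts of Areg (chr5:91139349-91139598, plus strand) and Btc (chr5:91402995-91403244, minus strand) are shown 5′ to 3′ on the strand of the gene, from RefSeq on GRCm38.p6, because these neighbours were among the ligands with the widest range. Capitals mark the only match to the motifs searched.

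Areg: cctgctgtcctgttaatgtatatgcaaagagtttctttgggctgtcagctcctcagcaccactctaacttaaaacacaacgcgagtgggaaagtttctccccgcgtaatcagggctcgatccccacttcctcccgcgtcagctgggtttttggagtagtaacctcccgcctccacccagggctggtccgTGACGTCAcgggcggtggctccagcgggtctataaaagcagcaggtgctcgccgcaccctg

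Btc: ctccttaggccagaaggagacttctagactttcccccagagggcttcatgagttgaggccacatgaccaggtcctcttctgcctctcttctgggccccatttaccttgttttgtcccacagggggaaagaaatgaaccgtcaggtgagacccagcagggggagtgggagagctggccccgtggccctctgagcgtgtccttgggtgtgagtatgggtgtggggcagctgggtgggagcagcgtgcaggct

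The capitals in the Areg window spell the cAMP response element TGACGTCA, 61 to 54 bases before the start. Both strands of each window were searched for this element, for the AP-1 site TGAGTCA and for the antioxidant response element core TGACNNNGC. The first was in 1.55% of 32851 mouse promoter windows and among the 6 genes only in Areg. The others were in 4.46% and 10.2% of windows and in none of the 6.

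Adjusted for the length of their exons, Tgfa and Egfr were the most abundant of the 8 transcripts in controls of batch 1, with median levels of 13.3 and 11.96 CPM per kb, followed by Hbegf at 10.3 and Erbb2 at 5.00 CPM per kb. Ereg reached 0.957, Areg 0.527, Btc 0.509 and Egf 0.181 CPM per kb. The 4 scarce transcripts rest on few reads: the lowest control library held 5 reads of Areg, 19 of Egf, 25 of Btc and 34 of Ereg, so that counting error adds to the spread between libraries.

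Heme-albumin came with higher levels of 5 ligand transcripts after 24 h, for Areg and Ereg in the order of dose and for Hbegf, Tgfa and Btc mainly at 200 and 400 µM, while Egf and both receptors overlapped their controls. Areg, which encodes a low-affinity EGFR ligand that is typically induced in injured epithelia, had a lowest, median and highest level of 0.343, 0.640 and 1.12 CPM in controls. At 12.5 µM these levels were 0.434, 0.929 and 1.31 CPM, and at 50 µM 0.6002, 1.19 and 2.65 CPM. At 200 µM they were 1.42, 2.16 and 3.80 CPM, and at 400 µM 1.28, 4.17 and 7.55 CPM. The groups at 200 and 400 µM lay wholly above the controls, with 10 of 10 libraries over the highest control, and 8 of 10 did so at 50 µM. Against control, Areg had log2 fold changes of 0.40 (SE 0.27), 0.95 (SE 0.27), 1.77 (SE 0.26) and 2.66 (SE 0.26) from the lowest to the highest dose.

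Ereg, whose product binds EGFR and ERBB4 with low affinity, had levels of 2.85, 3.95 and 6.90 CPM (lowest, median, highest) in controls. They were 3.36, 6.34 and 7.54 CPM at 12.5 µM and 4.31, 6.92 and 17.2 CPM at 50 µM. At 200 µM they were 7.50, 10.6 and 19.3 CPM, and at 400 µM 6.55, 18.9 and 50.3 CPM. All 10 libraries at 200 µM lay above the highest control, as did 9 of 10 at 400 µM and 5 of 10 at 50 µM. Ereg had log2 fold changes of 0.56 (SE 0.24), 0.99 (SE 0.24), 1.6 (SE 0.24) and 2.35 (SE 0.24) from the lowest to the highest dose. The ranges of neighbouring doses overlapped at each step.

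The more abundant ligand transcripts differed less. Hbegf, which encodes a ligand that also binds heparan sulfate, had control levels of 29.7, 49.7 and 69.1 CPM, 55.96, 62.2 and 79.5 CPM at 200 µM, and 67.7, 82.99 and 115 CPM at 400 µM. The group at 400 µM reached above the highest control in 9 of 10 libraries, with a log2 fold change of 0.78 (SE 0.14), and the group at 200 µM in 3, with 0.37 (SE 0.14). Tgfa, which encodes a high-affinity EGFR ligand, had levels of 67.2, 86.4 and 140 CPM in controls, 85.1, 132 and 189 CPM at 200 µM and 110, 164 and 182 CPM at 400 µM. Its log2 fold changes were 0.53 (SE 0.12) and 0.72 (SE 0.12), and 8 of 10 libraries at 400 µM exceeded the highest control. Btc, whose product binds EGFR and ERBB4, had control levels of 1.81, 2.30 and 5.05 CPM, against 2.81, 3.59 and 5.43 CPM at 200 µM and 3.92, 5.66 and 6.26 CPM at 400 µM. For Btc the log2 fold changes were 0.47 (SE 0.15) and 0.98 (SE 0.15), and 7 of 10 libraries at 400 µM lay above a control range that 1 library at 5.05 CPM had widened. At 12.5 and 50 µM the log2 fold changes of Hbegf, Tgfa and Btc ran from -0.17 to 0.25.

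Egf and the receptors showed broad overlap at every dose. Egf, whose product is the prototype ligand, had medians from 1.95 to 2.16 CPM over the 4 doses beside 2.04 CPM in controls, and a log2 fold change of 0.03 (SE 0.12) at 400 µM. Egfr ranged from 45.8 to 201 CPM in controls (median 135 CPM) and from 48.5 to 182 CPM at 400 µM (median 108 CPM), with a log2 fold change of -0.18 (SE 0.27). Erbb2 ranged from 13.5 to 35.6 CPM in controls (median 26.1 CPM) and from 16.5 to 32.8 CPM at 400 µM (median 25.1 CPM), with a log2 fold change of -0.02 (SE 0.16). The spread of Egfr among the controls alone limits what its comparisons could detect.

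A gene was called where edgeR's quasi-likelihood test gave a Benjamini-Hochberg adjusted p under 0.05 over all genes tested. By this rule 0 of the 8 genes were called at 12.5 µM, where 0.045% of all genes were, and 1 (Ereg) at 50 µM, where 0.463% were. At 200 µM 4 were called (Areg, Ereg, Tgfa and Btc), beside 13.6% of all genes, and at 400 µM 5 were called (those and Hbegf), beside 29% of all genes. Groups that did not overlap, with all treated libraries higher, were found for Areg and Ereg at 200 µM, beside 0.579% of all genes, and for Areg at 400 µM, beside 1.51%. The median log2 fold change over the 8 genes was 0.42 at 200 µM and 0.75 at 400 µM, beside -0.01 over all genes tested at both doses. Since the genes were chosen with these comparisons known, nothing is read from these counts.

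Microglial markers were lower in the same libraries: 4 of 5 fell at 200 µM and 2 of 5 at 400 µM, and their summed level ran from 53.2 to 176 CPM in controls, from 33.6 to 81.6 CPM at 200 µM and from 31.02 to 110 CPM at 400 µM. Of 5 astrocyte markers, 2 fell at 200 µM and 3 at 400 µM, with median sums of 9340.3 CPM in controls, 7076 CPM at 200 µM and 6719 CPM at 400 µM. Of 4 macrophage and myeloid markers tested, 2 fell at each of these doses and 1 rose at 400 µM. At each dose 1 of 4 endothelial markers fell and 1 of 3 oligodendrocyte precursor markers rose, and 1 of 5 neuronal markers rose at 400 µM. Their part in the ligand levels was not tested. In bulk tissue, more cells of a type and more RNA per cell cannot be told apart.

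**Figure D1:**
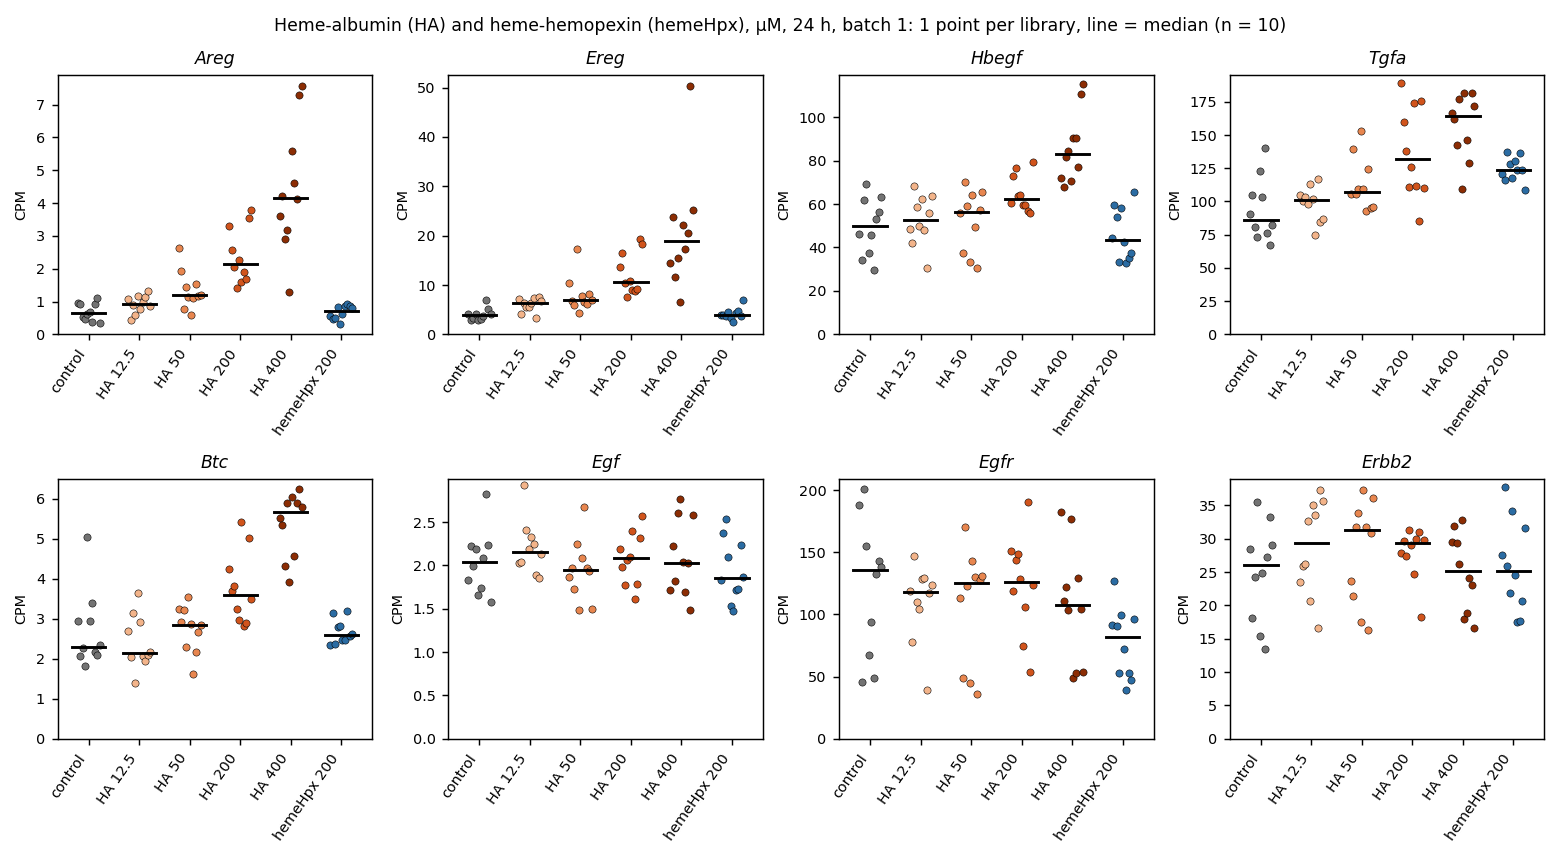
CPM of the 8 genes (y axes, each from 0) in the control, heme-albumin (HA) and hemeHpx groups of batch 1 (x axis, doses in µM), with 1 point per library and a line at the median of 10. Areg and Ereg climb with the dose of HA to medians of 4.17 and 18.9 CPM at 400 µM, Hbegf, Tgfa and Btc are higher mainly at 200 and 400 µM, Egf, Egfr and Erbb2 overlap throughout, and the hemeHpx points of Areg and Ereg lie with the controls.

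With hemopexin as the carrier in place of albumin, at the same 200 µM of heme and 24 h, the medians of Areg and Ereg were close to those of the controls. Areg had a lowest, median and highest level of 0.314, 0.709 and 0.928 CPM, and Ereg of 2.50, 3.95 and 7.07 CPM. No hemeHpx library reached the lowest heme-albumin library at 200 µM for either gene. Against heme-albumin the log2 fold changes were -1.81 (SE 0.25) for Areg and -1.54 (SE 0.23) for Ereg, and against control they were -0.03 (SE 0.28) and 0.06 (SE 0.24).

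Hbegf and Btc were also lower with hemeHpx than with heme-albumin. Hbegf had levels of 32.8, 43.4 and 65.6 CPM and Btc of 2.34, 2.59 and 3.18 CPM, and in both genes 7 of 10 libraries lay below the lowest heme-albumin library. The log2 fold changes against heme-albumin were -0.47 (SE 0.14) for Hbegf and -0.47 (SE 0.15) for Btc. Tgfa did not follow them: its levels with hemeHpx were 109, 124 and 137 CPM, with a log2 fold change of 0.40 (SE 0.12) against control and -0.13 (SE 0.12) against heme-albumin. The hemeHpx range of Tgfa lay inside both the control range and the heme-albumin range.

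Egfr had levels of 39.1, 81.7 and 127 CPM with hemeHpx and a log2 fold change of -0.65 (SE 0.27) against control, within the control range in 9 of 10 libraries and not called. Egf (median 1.85 CPM) and Erbb2 (median 25.2 CPM) overlapped both other groups. Tgfa was the 1 gene of 8 called between hemeHpx and control, beside 8.2% of all genes, and it was not called without the filter on low counts or after a correction for GC content and length. Between hemeHpx and heme-albumin 4 were called, all lower with hemeHpx (Areg, Ereg, Hbegf and Btc), beside 25.9% of all genes, and the groups did not overlap for Areg and Ereg, beside 0.804% of all genes. With hemeHpx 4 of 5 microglial markers were higher than with heme-albumin, as were 2 of 5 astrocyte, 2 of 5 oligodendrocyte, 2 of 4 macrophage and myeloid and 2 of 4 endothelial markers, while 1 of 3 of oligodendrocyte precursors was lower. Their part was not tested.

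In untreated slices of batches 2 and 3, 4 ligand transcripts were lower at 48 h than at 24 h of exposure time. Areg had levels of 0.991, 1.65 and 3.75 CPM at 24 h and 0.286, 0.515 and 1.27 CPM at 48 h, with 8 of 9 libraries at 48 h below the lowest at 24 h. Ereg went from 2.83, 5.03 and 13.3 CPM to 0.572, 2.68 and 2.90 CPM. Btc went from 3.41, 4.33 and 6.96 CPM to 1.72, 2.79 and 3.34 CPM, and its groups did not overlap, which held, in the same direction, for 0.0607% of all genes. Tgfa went from 138, 186 and 236 CPM to 88.1, 131 and 159 CPM.

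Between the times, log2 fold changes were -1.73 (SE 0.28) for Areg, -1.48 (SE 0.24) for Ereg, -0.82 (SE 0.18) for Btc and -0.55 (SE 0.12) for Tgfa. These 4 genes were called, beside 4.5% of all genes, whereas Egf, Hbegf, Egfr and Erbb2 had log2 fold changes from -0.13 to 0.26. Within round E1 alone Areg (-1.49) and Ereg (-0.98) stayed called. Of the 2 controls of round E2 at 48 h, both had the lowest Ereg of all control libraries, at 0.572 and 0.674 CPM, while the 7 of round E1 ran from 2.37 to 2.90 CPM. Microglial markers were higher at 48 h in 2 of 5 cases and oligodendrocyte markers lower in 4 of 5, with no test of their part.

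Free Hb came with small differences. At 24 h Areg had medians of 1.94 and 2.04 CPM with 200 and 400 µM beside 1.65 CPM in controls, and Ereg of 7.29 and 7.55 CPM beside 5.03 CPM, with ranges that overlapped. At 24 h the log2 fold changes were 0.09 (SE 0.26) and 0.30 (SE 0.26) for Areg and 0.25 (SE 0.22) and 0.57 (SE 0.22) for Ereg. None of the 8 genes was called at 24 h with either dose, beside 0.0971% of all genes at 200 µM and 0.522% at 400 µM. Within round E1 alone Ereg was called at 400 µM and 24 h, with a log2 fold change of 0.77 (SE 0.17).

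After 48 h of Hb, Ereg stood apart from its controls. Its levels were 3.30, 4.17 and 5.13 CPM with 200 µM and 3.43, 4.25 and 5.44 CPM with 400 µM, so that all 10 libraries at each dose lay above the highest control at 2.90 CPM. Groups that did not overlap in this direction made up 0.0546% of all genes at 200 µM and 0.0728% at 400 µM. The log2 fold changes of Ereg were 1.02 (SE 0.24) and 0.99 (SE 0.24), and it was the 1 gene called at each dose, beside 0.31% and 0.601% of all genes. Within round E1 they were 0.65 and 0.69, called only at 400 µM, and within round E2, against 2 controls, 2.79 and 2.63, called at both doses.

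Areg had 0.660, 1.03 and 1.57 CPM at 200 µM and 0.645, 0.969 and 1.51 CPM at 400 µM after 48 h, and 2 of 10 libraries at each dose lay above the highest control. Its log2 fold changes were 0.89 (SE 0.28) and 0.81 (SE 0.29) and were not called. Btc (0.40 and 0.43) and Tgfa (0.31 and 0.29) had smaller log2 fold changes. The ranges of the 2 doses of Hb overlapped for each of these genes.

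HbHp at 24 h and 200 µM came with log2 fold changes from -0.11 to 0.28 over the 8 genes, with 0 called beside 1.93% of all genes. At 400 µM the 4 libraries held 6.75, 3.57, 3.29 and 1.74 CPM of Areg (replicates 1 to 4). For Ereg they held 16.2, 9.21, 5.06 and 4.75 CPM, and for Btc 9.89, 8.74, 6.19 and 5.53 CPM. Replicate 1 was the highest in each of these genes, and for Ereg it alone lay above the control range of 2.83 to 13.3 CPM, with the other 3 inside it. The log2 fold changes were 1.04 (SE 0.37) for Areg, 1.05 (SE 0.32) for Ereg and 0.79 (SE 0.24) for Btc, and the latter 2 were called, beside 5.15% of all genes. Neither was called without replicate 1 (0.58 and 0.64), without replicate 2 (1.03 and 0.71) or without control replicate 10 (0.95 and 0.72), nor within round E2 alone (0.62 and 0.60). Areg was called in addition without HbHp replicate 4 (1.29) or without control replicate 8 (1.27).

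At 48 h the HbHp libraries held more of 4 ligand transcripts than the controls. With 200 µM, Areg had levels of 1.35, 2.00 and 4.00 CPM, Ereg of 4.67, 7.43 and 9.72 CPM, Tgfa of 160, 185 and 219 CPM and Btc of 3.16, 4.84 and 6.37 CPM. All 8 libraries lay above the highest control for Areg, Ereg and Tgfa, and 7 of 8 for Btc. With 400 µM the 5 libraries held 2.90, 2.20, 5.21, 3.36 and 3.46 CPM of Areg. For Ereg they held 8.16, 13.99, 17.02, 11.96 and 8.90 CPM. For Tgfa they held 246, 196, 173, 185 and 186 CPM, and for Btc 7.24, 4.98, 5.47, 4.94 and 6.05 CPM. For these 4 genes every library at 400 µM lay above the highest of the 9 controls. Groups that did not overlap in this direction made up 1.02% of all genes at 200 µM and 2.63% at 400 µM.

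The log2 fold changes against control at 48 h were 1.93 (SE 0.35) and 2.6 (SE 0.37) for Areg and 2.21 (SE 0.30) and 2.97 (SE 0.32) for Ereg at 200 and 400 µM. For Btc they were 0.96 (SE 0.22) and 1.20 (SE 0.24), and for Tgfa 0.45 (SE 0.15) and 0.53 (SE 0.16). These 4 genes were called at both doses, beside 11.9% of all genes at each. Within round E2 alone the values at 200 µM were 1.93 for Areg, 3.73 for Ereg, 1.35 for Btc and 0.32 for Tgfa, and at 400 µM 2.61, 4.49, 1.58 and 0.39, with Tgfa not called at either dose. Those values rest on 2 controls, both of low Ereg. Without HbHp replicate 1 the call of Tgfa at 400 µM was lost (0.42).

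Hbegf, Egfr, Egf and Erbb2 were not called with HbHp at 48 h. Hbegf had medians of 17.98 and 18.6 CPM beside 54.2 CPM in controls, but the 2 controls of round E2 held 13.5 and 19.6 CPM, and the log2 fold changes with the round term were -0.33 (SE 0.17) and -0.31 (SE 0.19). Egfr had medians of 31.5 and 31.9 CPM, with 18.3 and 29.05 CPM in the controls of round E2, and log2 fold changes of -0.65 (SE 0.31) and -0.80 (SE 0.34), which were 0.33 and 0.17 within round E2. Egf had log2 fold changes of -0.14 and 0.01 and Erbb2 of -0.22 and -0.20. Of 5 microglial markers 1 fell at 400 µM and 48 h and none at 200 µM, and of 5 astrocyte markers 1 fell at each dose. Their part was not tested.

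The difference between HbHp and control at 200 µM was larger at 48 h than at 24 h for Ereg, by 1.95 (SE 0.35) on the log2 scale, and for Areg by 1.90 (SE 0.41). Ereg was called for this difference, 1 of 8 genes beside 0.0121% of all genes. The level of Areg with HbHp was alike at the 2 times, with medians of 1.98 and 2.00 CPM, while that of the controls went from 1.65 to 0.515 CPM. For Ereg the HbHp medians were 5.56 and 7.43 CPM while those of the controls went from 5.03 to 2.68 CPM. Within round E2, which holds all HbHp libraries, the control medians of Ereg were 5.38 CPM (3 libraries) and 0.623 CPM (2 libraries). The difference for Ereg thus leans on few controls. With DESeq2, with RLE scaling, or without control replicate 9 at 48 h or control replicate 10 at 24 h, Areg was called too. For Hb at 200 µM the same difference was 0.77 (SE 0.33) for Ereg and 0.80 (SE 0.38) for Areg, with 0 of 8 genes called and 0% of all genes.

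Hp alone at 400 µM left the 8 genes near the controls at 24 h, with log2 fold changes from -0.18 to 0.25 and 0 called beside 0.704% of all genes. At 48 h its libraries divided by round. Areg was at 2.46, 2.07, 3.36, 4.61 and 0.889 CPM in the 5 libraries of round E1, but had a lowest, median and highest level of 0.615, 0.701 and 1.09 CPM in the 6 of round E2. Ereg had levels of 4.76, 7.18 and 15.9 CPM in round E1 and 1.72, 3.24 and 4.83 CPM in round E2, so that the rounds overlapped at their ends only.

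Over both rounds Hp had log2 fold changes at 48 h of 1.43 (SE 0.32) for Areg, 1.67 (SE 0.27) for Ereg, 0.62 (SE 0.20) for Btc, -0.59 (SE 0.15) for Hbegf and -1.07 (SE 0.27) for Egfr. These 5 genes were called, beside 10.8% of all genes. Within round E1 they were 2.17, 1.84, 0.74, -0.77 and -1.48, all called, and within round E2 0.51, 2.63, 0.79, -0.13 and 0.01, none called. Egfr thus had no lower level with Hp within round E2, where the 6 libraries ran from 17.6 to 35.4 CPM beside controls at 18.3 and 29.05 CPM. All Hp libraries were of batch 3, whereas of the round E1 controls at 48 h 6 were of batch 2 and 1 of batch 3. Despite the batch term, Hp and batch could thus be told apart only in part in round E1. Whether the rounds differed in their response to Hp was not tested.

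Set against Hb at the same dose, HbHp at 48 h had more Areg and Ereg. At 200 µM the log2 fold changes were 1.04 (SE 0.33) for Areg and 1.19 (SE 0.28) for Ereg, with 7 of 8 HbHp libraries above the highest Hb library in each case, and 2 of 8 genes were called, beside 4.98% of all genes. Areg was not called without the filter on low counts (1.03) or with the correction for GC content and length (0.95), and DESeq2 gave it no adjusted p. At 400 µM they were 1.79 (SE 0.36) and 1.98 (SE 0.31), with all 5 HbHp libraries above all 10 of Hb, which in this direction held for 1.61% of all genes. Btc was called in addition at 400 µM, with 0.77 (SE 0.23), giving 3 of 8 genes beside 4.28% of all genes. Within round E2 the values were 0.78 for Areg and 0.94 for Ereg at 200 µM, neither called, and 1.49 and 1.87 at 400 µM, with Ereg alone called. Btc was not called between HbHp and Hb at 400 µM without HbHp replicate 1 (0.66), 3 (0.77), 4 (0.81) or 5 (0.75). At 24 h none of the 8 genes was called between HbHp and Hb, beside 0.607% of all genes at 200 µM and 2.21% at 400 µM.

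Set against Hp alone at 400 µM, HbHp at 48 h had log2 fold changes of 1.17 (SE 0.32) for Areg and 1.30 (SE 0.27) for Ereg, and 2 of 8 genes were called beside 1.44% of all genes. The pooled groups overlapped, with 1 of 5 HbHp libraries above the highest Hp library for each gene. Within round E2, which holds all HbHp libraries, the values were 2.09 for Areg, 1.86 for Ereg and 0.79 for Btc, all called. Areg was not called without HbHp replicate 3 (0.96), 4 (1.18) or 5 (1.17). At 24 h Areg had 1.0 (SE 0.32) and Ereg 0.80 (SE 0.28), with 0 of 8 called beside 0.619% of all genes, and Areg was called without HbHp replicate 4 (1.25).

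**Figure D2:**
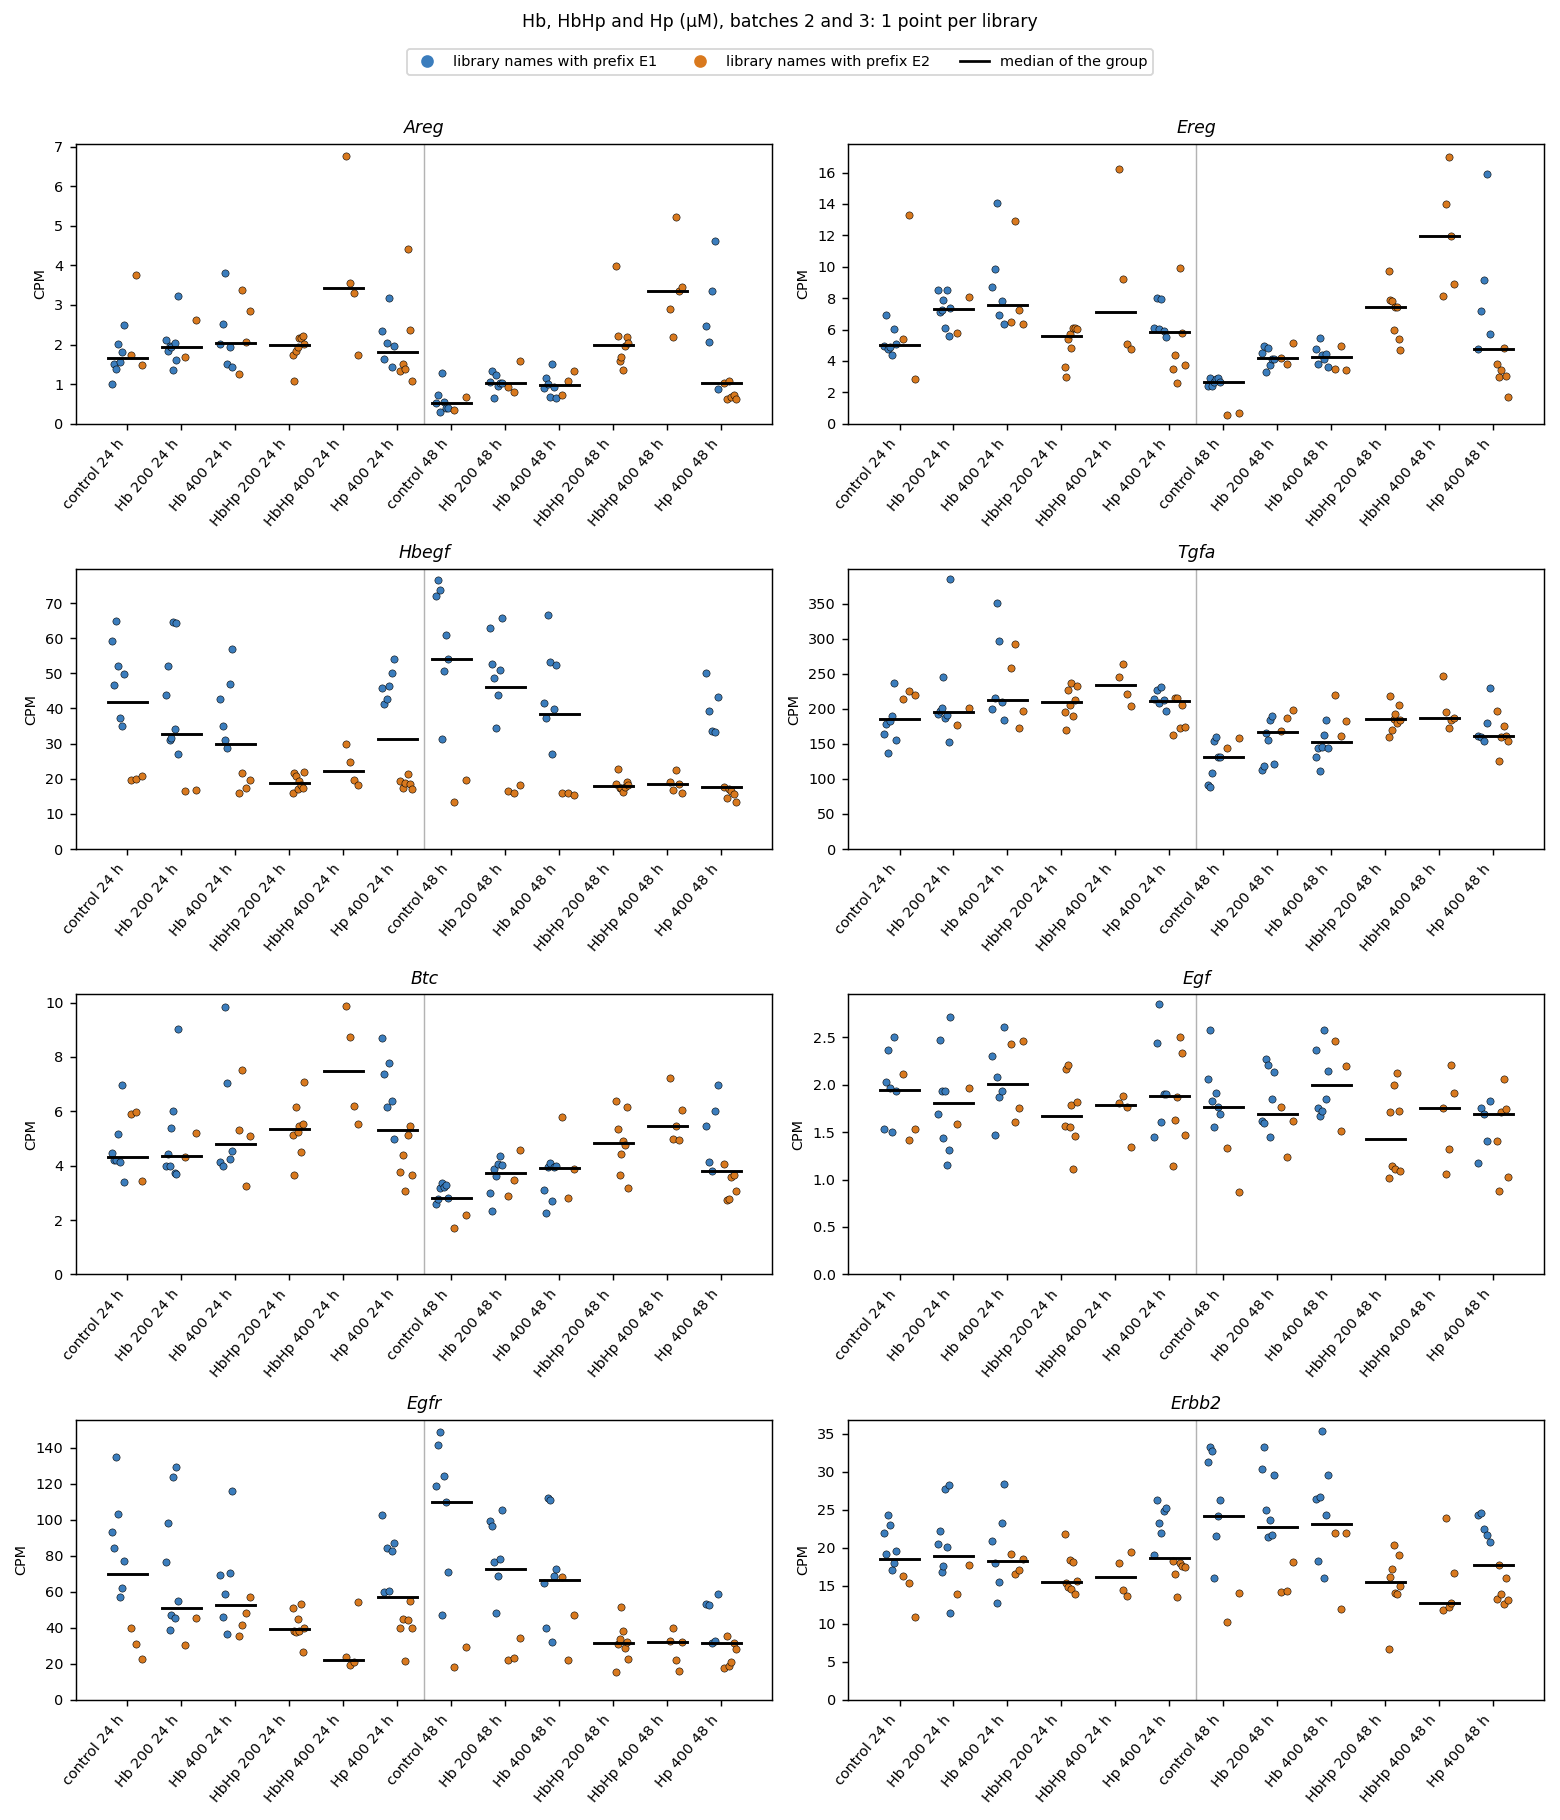
CPM of the 8 genes (y axes, each from 0) in the 12 groups of batches 2 and 3 (x axis, doses in µM, times in h), with 1 point per library, blue for round E1 and orange for round E2, and a line at the median of each group. HbHp points of Areg and Ereg lie above the controls at 48 h, whereas for Hbegf the orange points lie below the blue ones within every group that holds both rounds.

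**Figure D3:**
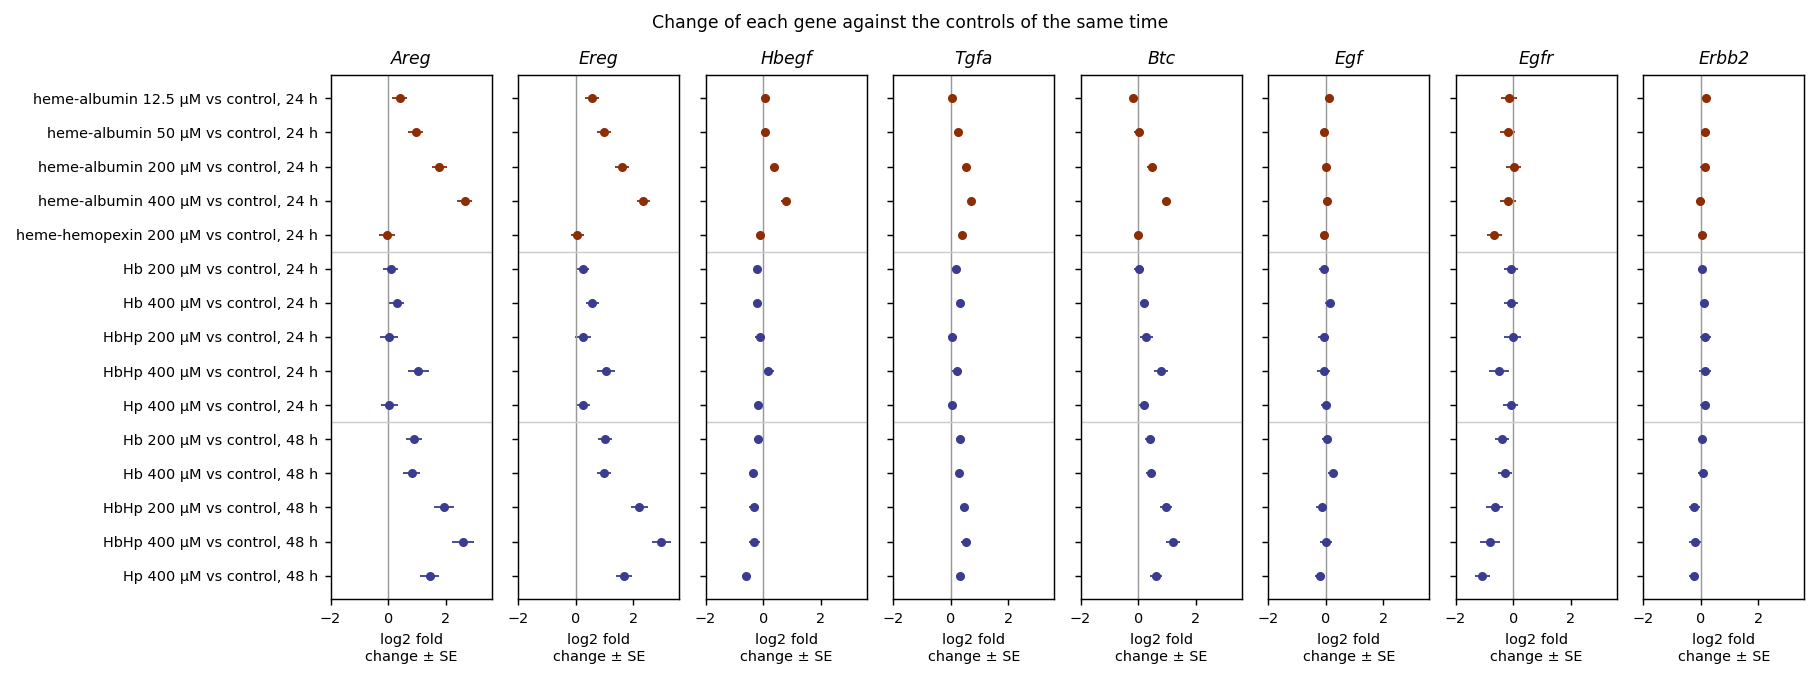
Log2 fold change (x axes) of each gene against the controls of the same time, with bars of 1 SE, for 15 treated groups (y axis), red for batch 1 and blue for batches 2 and 3. The largest values are those of Areg and Ereg with heme-albumin 400 µM (2.66 and 2.35) and HbHp 400 µM at 48 h (2.6 and 2.97), and the values of Egf and Erbb2 run only from -0.25 to 0.24.

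Between culture rounds 62.5% of the 8 genes were called, beside 68% of all genes, with Hbegf and Egfr furthest apart. Hbegf was lower in round E2 in every group that holds both rounds, without overlap. Controls at 24 h ran from 35.1 to 64.7 CPM in round E1 and held 19.6, 19.9 and 20.8 CPM in round E2, and controls at 48 h ran from 31.2 to 76.5 CPM against 13.5 and 19.6 CPM. Egfr in controls ran from 57.3 to 135 CPM in round E1 and from 22.6 to 39.8 CPM in round E2 at 24 h, and from 47.3 to 149 CPM against 18.3 and 29.05 CPM at 48 h.

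The log2 fold changes of round E2 against E1 were -1.40 (SE 0.07) for Hbegf, -1.07 (SE 0.13) for Egfr, -0.53 (SE 0.08) for Erbb2, -0.34 (SE 0.12) for Ereg and -0.23 (SE 0.09) for Btc, and these 5 genes were called, beside 68% of all genes. Areg had -0.17 (SE 0.14), Egf -0.16 (SE 0.08) and Tgfa 0.07 (SE 0.06). All 5 markers of microglia and all 5 of oligodendrocytes were higher in round E2, with median log2 fold changes of 1.16 and 0.48, and 3 of 4 fibroblast markers were higher too. Other lists were mixed. Of 5 astrocyte markers 2 were higher and 2 lower, and of 5 neuronal markers 4 were higher and 1 lower. Of 4 endothelial markers 3 were higher and 1 lower, and of 3 oligodendrocyte precursor markers 1 was higher and 2 lower. Their part in the levels of Hbegf and Egfr was not tested.

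The sexes were compared by the sex letter of the library names. Each name also carries a code that belongs to 1 sex, with 4 female and 5 male codes in batch 1 and 9 of each in batches 2 and 3. Up to 9 libraries share a code, and if a code marks an animal, p-values over libraries are too small. In batch 1 (30 libraries of each sex) none of the 8 genes was called by edgeR, beside 2.71% of all genes. Egfr was at medians of 105 CPM in females and 119 CPM in males, with a log2 fold change of 0.31 (SE 0.15) and an adjusted p of 0.209 by edgeR. In batches 2 and 3 (53 female and 54 male libraries) Tgfa and Btc were called over libraries, higher in males, 2 of 8 genes beside 12.8% of all genes. Tgfa had medians of 179 CPM in females and 190 CPM in males, with a log2 fold change of 0.22 (SE 0.05, adjusted p = 0.00073 by edgeR). Btc had medians of 3.99 and 5.15 CPM, with 0.31 (SE 0.07, adjusted p = 0.00147 by edgeR). With the mean of each code as the replicate, 0 of the 8 genes were called by limma in either set: over the 18 codes Tgfa had 0.21 (adjusted p = 0.0829) and Btc 0.28 (adjusted p = 0.0599), and the calls of all genes fell from 2102 to 68. The ranges of the sexes overlapped widely. Within round E1 the log2 fold changes were 0.41 for Tgfa and 0.44 for Btc, both called, and within round E2 0.08 and 0.17, neither called. Of 5 microglial markers 4 were lower in males of batches 2 and 3, with no test of their part.

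The rest of the pathway was read through 34 further genes, of which 33 were tested: other ligands (neuregulins), ERBB3 and ERBB4, sheddases, brakes on the receptor, adaptors, and feedback genes and targets of ERK. The list was written with earlier results of these data known. Its genes are named mainly for the largest changes among those that passed, so their adjusted p-values are descriptive and give no independent support. With heme-albumin at 12.5 µM none of the 33 passed the test, by edgeR, beside 0.045% of all genes. At 50 µM 3 rose, 9.09% of the list beside 0.463% of all genes. By edgeR, Fosl1 rose by 0.75 (SE 0.14, adjusted p = 0.00105), Ier3 by 0.64 (SE 0.15, adjusted p = 0.0223) and Phlda1 by 0.30 (SE 0.08, adjusted p = 0.044). Fosl1 encodes an AP-1 subunit whose transcription follows ERK activity, and Ier3 and Phlda1 are early response genes.

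At 200 µM 9 of 33 passed, 8 higher and 1 lower, and at 400 µM 13, 9 higher and 4 lower, beside 13.6% and 29% of all genes. Their median log2 fold change was 0.06 and 0.07, beside -0.01 over all genes. Fosl1 rose most, by 1.65 (SE 0.14, adjusted p = 2.03e-13) at 200 µM and 2.52 (SE 0.14, adjusted p = 5.97e-21) at 400 µM. Nrg1, which encodes the neuregulin ligand of ERBB3 and ERBB4, rose by 0.80 (SE 0.20, adjusted p = 0.00392) and 1.36 (SE 0.20, adjusted p = 3.01e-07), and Ier3 by 0.80 and 1.11. Phlda1 rose by 0.56 at 200 µM, and Dusp5, a nuclear phosphatase of ERK, by 1.08 (SE 0.11, adjusted p = 4.53e-11) at 400 µM. The genes that fell, named after their values were seen, were the receptor Erbb4 at both doses (-0.35 and -0.75) and, at 400 µM, the receptor Erbb3 (-0.36) and the sheddases Adam10 (-0.18) and Adam17 (-0.12).

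Between hemeHpx and control 1 of 33 passed, 3.03% of the list beside 8.2% of all genes. It was Phlda1 with 0.27 (SE 0.08, adjusted p = 0.0361 by edgeR). Against heme-albumin at 200 µM 10 of 33 passed, 9 of them lower with hemeHpx, which is 30.3% of the list beside 25.9% of all genes. Fosl1 fell by 1.38 on the log2 scale (SE 0.14, adjusted p = 1.25e-10), Nrg1 by 0.70, Etv5 by 0.51 and Ier3 by 0.46. Erbb3 was the 1 gene that was higher, and it was named after its value was seen.

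With Hb, 0 of 33 passed at 200 µM at either time, beside 0.0971% of all genes at 24 h and 0.31% at 48 h. The list's share at 400 µM was 6.06% at 24 h and 3.03% at 48 h, beside 0.522% and 0.601% of all genes. Fosl1 (0.74, adjusted p = 0.0337) and Phlda1 (0.31, adjusted p = 0.043) rose at 24 h, and Nrg1 (0.48, adjusted p = 0.00253) at 48 h. With HbHp at 200 µM none passed at 24 h, beside 1.93% of all genes. At 48 h 12.1% of the list passed, beside 11.9% of all genes. Fosl1 (0.98), Nrg1 (0.51) and Dusp4 (0.48) rose and Socs3, a feedback inhibitor of cytokine signals, fell (-0.47). With HbHp at 400 µM 7 passed at 24 h, among them Fosl1 (1.63), Dusp5 (1.13), Egr1 (0.88) and, lower, Erbb3 (-0.69), and 9 passed at 48 h, all higher, led by Fosl1 (1.73), Dusp4 (0.92), Dusp5 (0.77) and Ier3 (0.76). These were 21.2% and 27.3% of the list, beside 5.15% and 11.9% of all genes. The median log2 fold change of the 33 genes was 0.17 at 24 h and 0.08 at 48 h with HbHp at 400 µM. The values of Dusp4 depended on the round term: with a batch term alone Dusp4 stood at -0.44 with HbHp at 200 µM and 48 h, and at 400 µM it was not called.

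With Hp alone none of the 33 passed at 24 h, beside 0.704% of all genes. At 48 h Nrg1 (0.47) rose and the receptor brake Lrig1 (-0.48) fell, 6.06% of the list beside 10.8% of all genes. Between HbHp and Hb at 400 µM 3 of 33 passed at 24 h, Dusp5 (1.07), Fosl1 (0.89) and Egr1 (0.68), and 3 at 48 h, Fosl1 (1.16), Dusp4 (0.62) and Dusp5 (0.61), each time 9.09% of the list, beside 2.21% and 4.28% of all genes. With a batch term alone Dusp4 stood at -0.17 in this comparison at 48 h. At 200 µM none passed at 24 h, beside 0.607% of all genes. At 48 h only Socs3 (-0.46) passed, lower with HbHp, 3.03% of the list beside 4.98% of all genes. Between HbHp and Hp at 400 µM Fosl1 (1.16), Dusp5 (0.89) and Egr1 (0.74) passed at 24 h, and Fosl1 (1.11), Dusp4 (0.89), Ier3 (0.68) and Phlda1 (0.44) at 48 h. These were 9.09% and 12.1% of the list, beside 0.619% and 1.44% of all genes, and with a batch term alone Dusp4 was not called.

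Untreated slices at 48 h against 24 h, where 4 of the 8 family genes were lower, had 0 of the 33 genes past the test. Of all genes 4.5% passed. Between rounds 29 of 33 passed (87.9%, beside 68% of all genes), 20 lower and 9 higher in round E2, with a median log2 fold change of -0.20 beside 0.02 over all genes. The 4 furthest apart were Spry4 (-1.49), Etv4 (-1.25), Dusp4 (-1.24) and Etv5 (-1.17), which are feedback genes and targets of ERK, with adjusted p of at most 8.67e-34. Between the sexes 3 of 33 passed over libraries in batch 1 (9.09%, beside 2.71% of all genes), with Socs3 (-0.33) and Ier3 (-0.31) lower and Cbl (0.15) higher in males. In batches 2 and 3 it was 8 of 33 (24.2%, beside 12.8%), among them Nrg4 (-0.30), Dusp6 (-0.24), Fosl1 (0.23) and Rhbdf2 (-0.18). With the library code as the replicate 0 and 1 of 33 passed by limma, beside 5 of 15554 and 68 of 16473 genes. Dusp6 was the 1 of the list that did (-0.23).

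**Figure D4:**
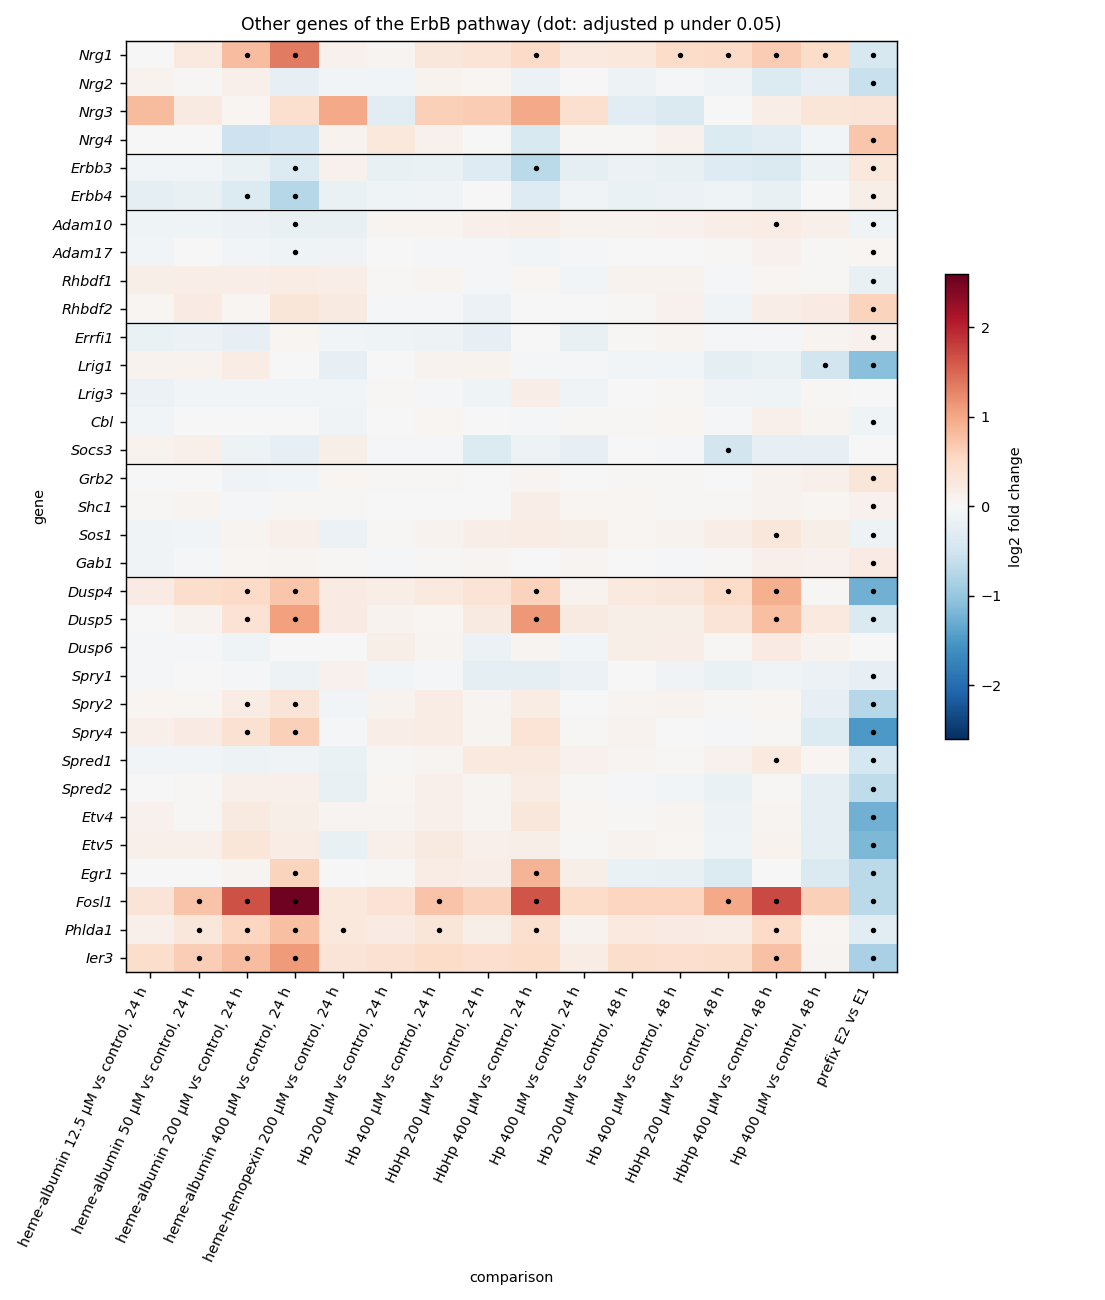
Log2 fold change (colour, red higher and blue lower) of the 33 other genes of the ErbB pathway (y axis, lines between gene classes) in 15 treated groups against their controls and between culture rounds (x axis), with a dot where the adjusted p was under 0.05. Fosl1 holds the deepest red, 2.52 with heme-albumin at 400 µM, and the column of culture round is blue for most of the feedback genes and targets of ERK at the bottom.

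The members differed in what they ran with. Likeness was measured as the lower of 2 Pearson correlations of log2 CPM, over the 60 libraries of batch 1 and over the 107 grouped libraries of batches 2 and 3. The libraries share treatments, rounds and depth, and the values are descriptions. Areg was most like Ereg (r = 0.90 and 0.81), and Gdnf, a neurotrophic factor of glial cells, was also among its nearest genes (0.81 and 0.68). Ereg was most like Areg, then Ptgs2, the inducible cyclooxygenase (0.92 and 0.72), and Fosl1 (0.91 and 0.69). Btc also had Gdnf as its nearest gene (0.86 and 0.79), followed by Dusp10 and Dlg1.

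Hbegf was most like the ERK feedback gene Spry2 (0.88 and 0.89), Igfbp3 and Pvr, and Tgfa most like Syt4 (0.90 and 0.87), Map6 and Eml1. Egfr was most like Nfib (0.98 and 0.97), Rfx4 and Cdon, and Erbb2 most like Col4a5 (0.95 and 0.94), Prdm16 and Ephb4. Egf had no close companion, with 0.37 and 0.48 for Leng8, the nearest. Within the family Egfr and Erbb2 ran together (0.81 and 0.83), as did Tgfa and Btc (0.76 and 0.75). Hbegf correlated with Egfr (0.53 and 0.82) more than with Areg (0.56 and -0.21) in batches 2 and 3.

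**Figure D5:**
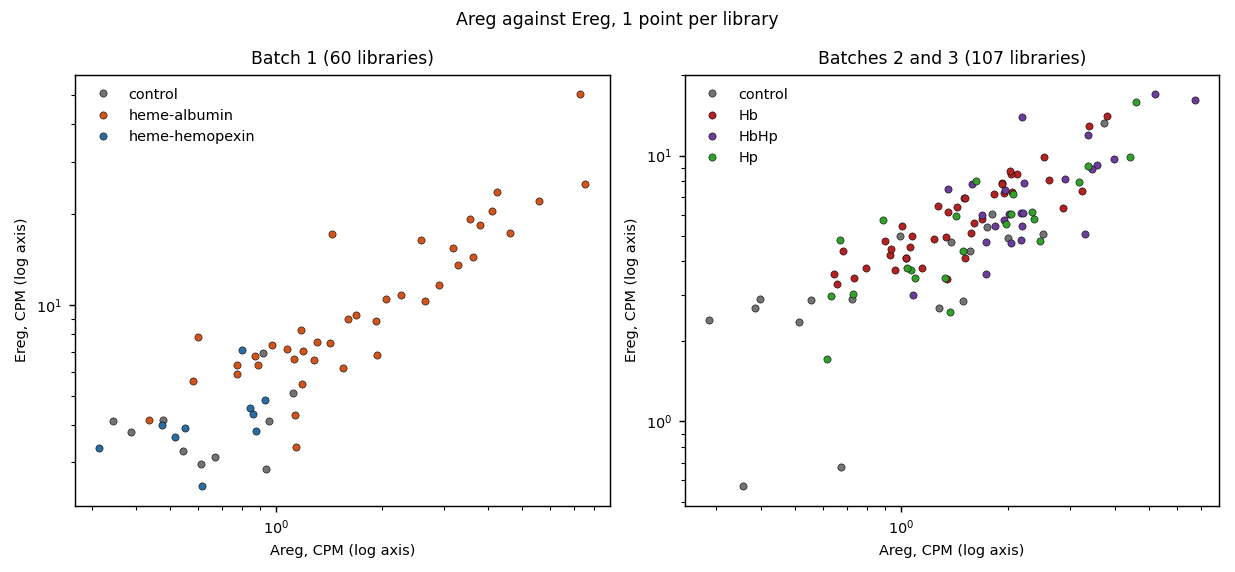
Ereg against Areg, both in CPM on log axes, with 1 point per library coloured by treatment, for 60 libraries of batch 1 on the left and 107 of batches 2 and 3 on the right. The points rise together (r = 0.90 and 0.81), with heme-albumin libraries at the upper right in batch 1 and 2 controls of low Ereg at the lower left in batches 2 and 3.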

How the data were processed

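RNA of brain slice cultures was extracted with the Lexogen SPLIT kit and sequenced as Illumina TruSeq mRNA libraries. The counts the authors deposited are whole numbers of reads for each Ensembl gene, not normalized. The submitters' processing notes name featureCounts, without a version, and the genome GRCm39, and an aligner is not given in the sources used here. Symbols, exon lengths and overlaps came from GENCODE M21 on GRCm38 and promoters from RefSeq on GRCm38.p6, matched by identifier or symbol.

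Counts were analysed in R 4.3.3 with edgeR 4.0.16 (TMM scaling, filterByExpr with a smallest count of 10 and total of 15, quasi-likelihood F test, Benjamini-Hochberg adjustment at 0.05 over all genes). The 60 libraries of batch 1 were fitted by group, and the 107 grouped libraries of batches 2 and 3 by group, batch and culture round. The filter left 15554 and 16473 genes. A standard error was taken as the size of the log2 fold change over the root of its F statistic. The fits were tested on simulated data. For the treatment comparisons the simulated counts held no effect of batch, round or library code, so they could not show how such effects bear on the fits. The sexes were also compared over library codes, with limma 3.58.1 on the mean residual of log2 CPM per code. The methods of the study name DESeq2, which was run as an alternative (1.42.0).

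The genes, the pathway list, the marker lists and the tests were chosen with earlier results of these data known. From the pathway list up to 4 genes with the largest change among those that passed are named per comparison, and for each member the 3 most similar genes with a mean of at least 1 CPM in both sets. One such gene is not reported here. No 2 libraries of a group were alike within sampling noise: the lowest chi-square per degree of freedom over 630 pairs was 3.81. Precision at the lowest levels is limited by counting.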

Additional observations from a re-analysis of the deposited data

Results flagged for a closer look

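Of 128 checks of a gene in a group of 4 to 10 libraries, 17 had a highest or lowest library far from the others by Dixon's criterion. Chance alone flags about 1 in 20 groups where values are normally distributed. The criterion was applied to CPM without a log, so this rate need not hold for skewed or low levels. Ereg stood out in 4 of them. One library held 50.3 CPM with heme-albumin 400 µM (next 25.3 CPM), one 17.2 CPM with heme-albumin 50 µM, one 7.07 CPM with hemeHpx and one 13.3 CPM among the controls at 24 h of batches 2 and 3. For Areg these were 1.27 CPM in a control at 48 h, 1.08 CPM, a low value, with HbHp 200 µM at 24 h and 4.00 CPM with the same at 48 h.

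Tgfa at 384 CPM and Btc at 9.01 CPM with Hb 200 µM at 24 h came from 1 library, of round E1. Btc was also far from the rest at 5.05 CPM in a control of batch 1 and at 5.78 CPM with Hb 400 µM at 48 h. Egf was high in single libraries of batch 1 at 2.83 CPM in a control and 2.93 CPM with heme-albumin 12.5 µM. Egfr was high at 116 CPM with Hb 400 µM at 24 h and at 54.1 CPM in 1 of the 4 libraries with HbHp 400 µM at 24 h. Hbegf was high at 22.6 CPM with HbHp 200 µM at 48 h, and Erbb2 low at 18.2 CPM with heme-albumin 200 µM.

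For 2 ligands the median of the 21 libraries without a group lay above the highest control. These libraries were mostly of batch 3, whereas the controls were mostly of batch 2. The levels hold no term for batch or round, and the difference was not tested. The median Tgfa of the ungrouped libraries was 256 CPM, over the highest of 19 controls at 236 CPM. Their median Btc was 8.31 CPM, over 6.96 CPM, with 13 of 21 libraries above the highest control in each case. The difference of Ereg between HbHp 200 µM and control was larger at 48 h than at 24 h by 1.95 on the log2 scale, tested as an interaction in the fit over all genes. Because the gene was chosen with results known, no p is given.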

How the results depend on the processing

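Of the log2 fold changes of the 8 genes recomputed under alternatives, 1944 kept their side of the threshold, 53 lost the call and 30 gained it. In 1 further case a called gene reversed its direction. Values called in neither fit are among the 1944 even where their sign changed, as for Egfr with HbHp at 48 h within round E2. The cause was not tested in any of these cases. The count called against control went from 1 to 0 for hemeHpx without the filter on low counts and with the correction for GC content and length (chosen after seeing the data), and from 2 for HbHp 400 µM at 24 h to 1 without the filter and to 0 with a batch term only, in round E2 only and with the GC correction. With a batch term only it became 0 in place of 1 for Hb 200 and 400 µM at 48 h, 7 in place of 4 for HbHp 200 µM at 48 h, 3 in place of 5 for Hp at 48 h, 5 in place of 2 for HbHp against Hb 200 µM at 48 h and 1 in place of 2 for HbHp against Hp at 48 h. Between HbHp and Hb 200 µM at 48 h it was 1 with DESeq2, which gave no adjusted p for Areg, without the filter and with the GC correction. With the mean of each library code as the replicate (chosen after seeing the data) it was 0 for the sexes in batches 2 and 3 (from 2), and the pathway genes had 1 call over the 2 sex comparisons (from 11).

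In round E1 only, the count was 1 for Hb 400 µM at 24 h (from 0), 0 for Hb 200 µM at 48 h (from 1) and 2 for control at 48 h against 24 h (from 4). In round E2 only, it was 0 for Hp at 48 h (from 5), for HbHp against Hb 200 µM at 48 h (from 2) and for the sexes in batches 2 and 3 (from 2), and 1 for HbHp against Hb 400 µM at 48 h (from 3) and against Hp at 24 h (from 0). Egfr reversed to 0.01 with Hp at 48 h in round E2 only, and Dusp4 with a batch term only to -0.44 with HbHp 200 µM and -0.17 for HbHp against Hb 400 µM, both at 48 h. The difference of the HbHp 200 µM effect between times had 2 genes called in place of 1 with DESeq2 and with RLE scaling. Of the log2 fold changes of named pathway genes, 447 kept direction and call, 87 lost the call and 2 reversed, and of the counts of pathway genes called per comparison 59 moved by over 1.5 times and 195 did not. The calls of the 33 pathway genes summed over 28 comparisons were 115, and in round E1 only they were 22 over 9 comparisons, beside 13 in the main fit of those.

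Leaving out 1 library of HbHp 400 µM or of the controls of round E2, in turn, gave counts of 0 to 3 for HbHp 400 µM against control at 24 h and 3 to 4 at 48 h, 4 to 4 for HbHp 200 µM at 48 h, 2 to 3 for HbHp against Hb 400 µM at 48 h, 0 to 1 for HbHp against Hp at 24 h and 1 to 2 at 48 h, and 1 to 2 for the difference of the HbHp 200 µM effect between times. The libraries that decided these counts are named in the report.

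In batch 1 each of the 5 male codes held 6 libraries, 1 in every group. The main fits had no term for the code, so their errors and calls leave this pairing out. The codes did not meet the criterion set for pairing, a correlation of deviations over 0.1 in every pair, which single noisy pairs can fail. Of same-code pairs 55.6% were over 0.1 in batch 1 and 46.2% in batches 2 and 3. Same-code pairs had a median of 0.193 in batch 1 (169 pairs, lowest -0.664; other pairs -0.011) and 0.0715 in batches 2 and 3 (264 pairs, lowest -0.718; other pairs -0.020), so libraries of a code shared some variation, more so in batch 1. Over all genes a replicate block raised the calls for hemeHpx against control from 1276 to 3706 and for heme-albumin 400 µM from 4510 to 5265. With the code as a replicate block the count of the 8 genes was 2 for Hb 200 µM at 48 h (from 1), 1 for HbHp against Hp at 24 h (from 0) and 2 for the difference of the HbHp 200 µM effect between times (from 1), and it stayed within 1.5 times in the other comparisons. Low counts of Areg, Egf and Btc limit what could be seen at control levels.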

Other observations

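Of the 21 libraries without a group, 20 carry a tag that names Hb with hemopexin while their titles name haptoglobin, and 1 is a control whose labels give both times. Areg in these libraries had a lowest, median and highest level of 0.911, 2.12 and 3.82 CPM, and Ereg of 1.40, 8.85 and 14.01 CPM. Hbegf ran from 18.4 to 97.8 CPM (median 43.7 CPM), with 2 libraries above the highest control. Egfr ran from 18.1 to 69.2 CPM (median 30.2 CPM), with none above the highest control of 149 CPM, and Erbb2 from 12.4 to 35.2 CPM (median 22.3 CPM). Egf ran from 0.894 to 2.64 CPM (median 1.74 CPM).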
